A study of Homo sapiens with 14 samples.

Results

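The reticulons (RTN1, RTN3, RTN4), the REEP proteins (REEP3, REEP4, REEP5, REEP6), ARL6IP1 and the atlastins (ATL2, ATL3) were described as 10 genes of the 19440 counted in selective ribosome profiling of the ER membrane protein complex (EMC). The members were taken by symbol from all 14 libraries, and 9 of the 10 had enough footprints to be tested. Reticulons, REEPs and ARL6IP1 carry hydrophobic hairpins that enter the endoplasmic reticulum (ER) membrane from the cytosolic side and curve it into tubules. Atlastins are membrane-anchored GTPases that fuse ER tubules into a network, and their membrane anchor is also a hairpin. The EMC is an insertase that places weakly hydrophobic or short-loop membrane segments into the ER membrane, during or after synthesis of the protein.

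Footprints were sequenced from Flp-In T-REx 293 cells, a human embryonic kidney line with a single docking site for a doxycycline-inducible transgene. The EMC6 line was an EMC6 knockout that expressed 3Flag-EMC6, while the EMC7 line (3Flag-EMC7) and the EMC10 line (3Flag-EMC10) had no knockout named. All 3 lines received doxycycline (0.5 to 1.0 ng/mL, 72 h) and were harvested in cycloheximide, which holds ribosomes on their messages. Microsomes were treated with nuclease and solubilized, and this input was bound to Flag beads to give the IP. Input and IP were each sampled from 2 replicates of the EMC6 line, 2 of the EMC7 line and 3 of the EMC10 line. No IP from cells without a tag was analysed here, so an enrichment measures input against beads and includes whatever binds beads without the tag. Whether replicates were separate cultures or clones is not in the labels, so each p-value reflects only how far these samples scatter, possibly for technical reasons.

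Inputs held 1692490 to 3395114 gene counts and IPs 515302 to 2248591, with the lowest totals in the EMC6 line. The tagged subunit's own message was higher in the IP of its line by 7.54 ± 0.25 (EMC6), 5.71 ± 0.28 (EMC7) and 7.31 ± 0.18 (EMC10) on the log2 scale (± standard error). It took 14.4% to 15% of all gene counts in the EMC7 IPs, 24.6% to 26.1% in the EMC10 IPs and 0.431% to 0.449% in the EMC6 IPs. The EMC7 message also rose in the IPs of the EMC6 line (3.26 ± 0.26) and the EMC10 line (2.90 ± 0.20), and the EMC6 message in those of the EMC7 and EMC10 lines (1.17 ± 0.24 and 1.09 ± 0.20). In inputs the EMC6 message of the EMC6 line did not differ by the test from the other lines (-0.26 ± 0.20, adjusted p = 0.325). Of the markers listed for the line, VIM, KRT8, KRT18 and NEFL had counts in every library, PAX2 was at most 3.74 CPM (counts scaled to a common library total), and NEFM was at most 0.232 CPM. Markers of hepatocytes (ALB), leukocytes (PTPRC) and endothelium (PECAM1) were at 0 in every library, HBB was at most 1.08 CPM, and the fibroblast marker COL1A1 was at 1.04 to 12 CPM.

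All 9 tested hairpin messages had more footprints in the IP than in the input over the mean of the 3 lines (edgeR quasi-likelihood test, Benjamini-Hochberg adjusted p under 0.05 over 9458 genes). Among all genes tested, 23.7% rose and 26.9% fell. The members and the lists below were chosen with earlier results of these data known, so counts set beside all genes are not an independent test. The rises ran from 0.57 (RTN4) to 1.46 (ATL2) on the log2 scale, with a median of 0.92 against -0.19 for all genes. ATL2, REEP6 and REEP4 had the larger rises, and RTN4 and REEP3 the smaller ones. Every tested member was higher in the IP than in the input of its own replicate in 7 of 7 pairs, and its ratio also exceeded the all-gene median each time. How many of all genes did so, or had inputs and IPs apart within a line as given below, was not counted. By their change the members lay between the 78.2 (RTN4) and 89.8 (ATL2) percentile of all genes. These changes are relative: counts were scaled with TMM, which places the middle of the genes near 0, and the direction of 5 members depends on that choice, as given with the scalings after the results by line.

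**Figure D1:**
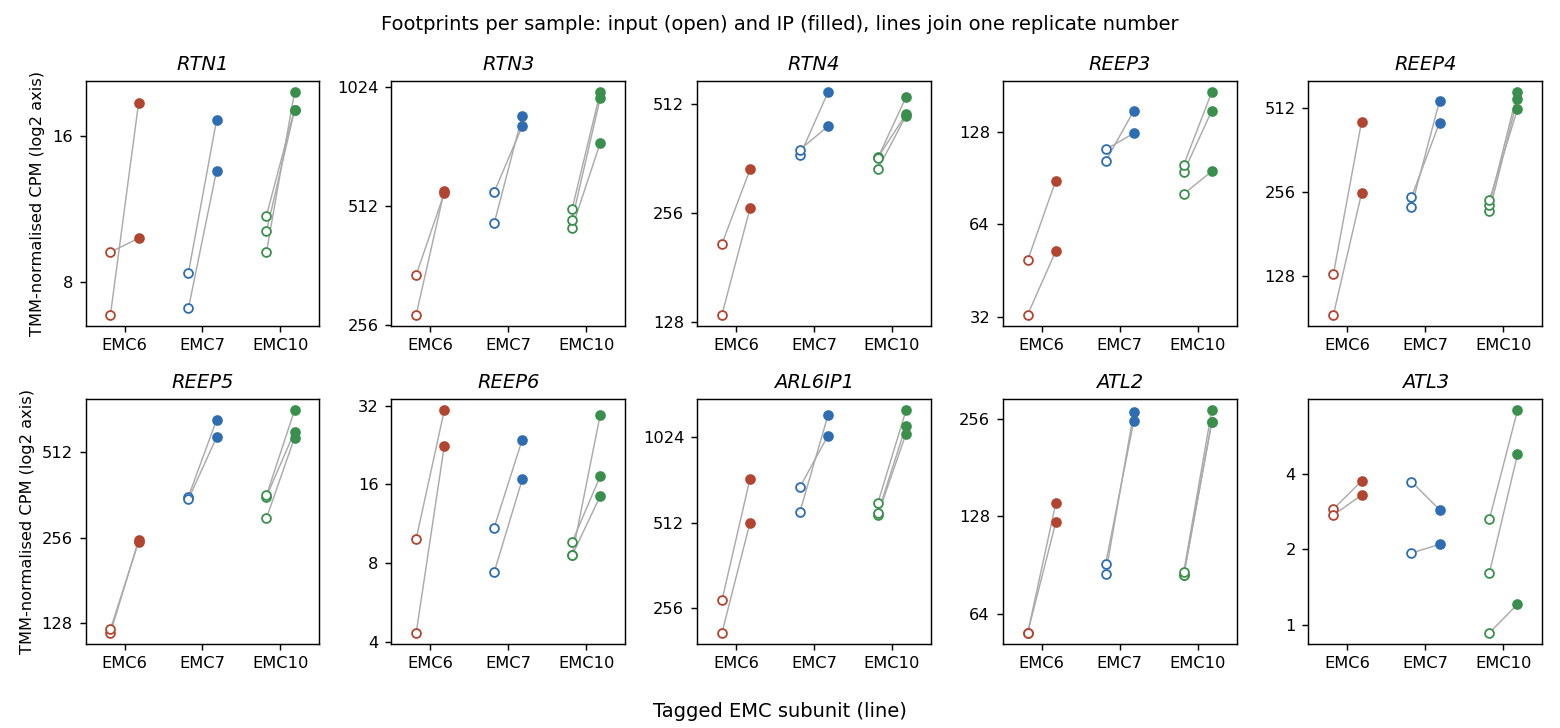
Footprints of each member in each sample, in TMM-normalised CPM on a log2 axis that differs between panels, by tagged line. Open points are inputs, filled points are IPs, and grey lines join input and IP of the same replicate number. The IP point lies above the input in all 7 pairs for the 9 tested members, while ATL3 rests on 1 to 16 counts per library.

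The reticulons share a C-terminal reticulon domain with a pair of hairpins and differ in their N-terminal parts, and the counts add up all isoforms of a gene. RTN1 (chromosome 14, 59595976 to 59870776, GRCh38.p14 in the RefSeq table) is best known from neurons and neuroendocrine cells. It was low here, with 19 to 44 counts in each input and 9 to 24 in each IP. In the EMC6 line it was at 6.87 and 9.24 CPM in the inputs and at 18.7 and 9.86 CPM in the IPs. The EMC7 line had 8.38 and 7.08 CPM in the inputs against 17.3 and 13.6 CPM in the IPs. In the EMC10 line the inputs were at 10.2, 9.23 and 11 CPM and the IPs at 18.1, 19.7 and 18.1 CPM. Inputs and IPs of RTN1 did not overlap within a line, although EMC6 IP replicate 2 stood only 1.07-fold above its own input. The rise over the lines was 0.87 ± 0.20 (adjusted p = 0.000454, edgeR).

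RTN3 (chromosome 11, 63681450 to 63759891) builds ER tubules and acts as a receptor for their turnover by autophagy. It was at 272 and 343 CPM in the EMC6 inputs and at 559 and 552 CPM in the EMC6 IPs. The EMC7 inputs had 463 and 555 CPM and the IPs 865 and 815 CPM. In the EMC10 line the inputs had 452, 473 and 504 CPM and the IPs 740, 959 and 993 CPM. Every IP of a line was above every input of that line, and the 7 folds of a pair ran from 1.47 to 2.05. RTN3 rose by 0.83 ± 0.09 on the log2 scale (adjusted p = 1.41e-09).

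RTN4 (chromosome 2, 54972189 to 55137831), also called Nogo, shapes tubules and in its longest isoform blocks the growth of axons. The EMC6 inputs had 134 and 210 CPM and the IPs 264 and 337 CPM. RTN4 was at 369 and 383 CPM in the EMC7 inputs and at 552 and 444 CPM in the IPs. The EMC10 line had 338, 364 and 364 CPM in the inputs and 474, 479 and 534 CPM in the IPs. The groups did not overlap within any line, with folds of a pair from 1.16 to 1.96. The rise was 0.57 ± 0.10 (adjusted p = 1.31e-05), which placed RTN4 at the 78.2 percentile of all genes, below the other 8 members.

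The REEP proteins fall into a group with a longer cytosolic tail that includes REEP3 and REEP4, which clear ER from chromosomes in mitosis, and a shorter group with REEP5 and REEP6, which shape tubules and sheets. REEP3 (chromosome 10, 63521401 to 63625128) was at 32.5 and 48.9 CPM in the EMC6 inputs and at 52.4 and 88.7 CPM in the IPs. In the EMC7 line it had 103 and 112 CPM in the inputs and 150 and 126 CPM in the IPs. The EMC10 inputs had 80.2, 94.5 and 99.7 CPM and the IPs 95.2, 150 and 172 CPM. Here the EMC10 groups overlapped, since IP replicate 1 lay below input replicate 3. REEP3 rose by 0.61 ± 0.13 over the lines (adjusted p = 0.000179). The gene overlaps JMJD1C, which had 826 counts over all libraries, and reads in the shared stretch cannot be assigned without the strand.

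REEP4 (chromosome 8, 22138020 to 22141907) was at 92.9 and 130 CPM in the EMC6 inputs and at 252 and 456 CPM in the IPs. It had 226 and 245 CPM in the EMC7 inputs and 541 and 452 CPM in the IPs. In the EMC10 line the inputs had 218, 230 and 239 CPM and the IPs 552, 582 and 506 CPM. Inputs and IPs lay apart in every line, with folds of 1.85 to 3.5 in the 7 pairs. REEP4 rose by 1.34 ± 0.11 (adjusted p = 3.98e-13) and REEP3, of the same group of REEPs, by less in 7 of 7 pairs, with a mean difference of 0.74 ± 0.25 (SD, n = 7) on the log2 scale.

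REEP5 (chromosome 5, 112876385 to 112922227), an abundant tubule protein, had 118 and 122 CPM in the EMC6 inputs and 250 and 248 CPM in the IPs. The EMC7 inputs were at 358 and 351 CPM and the IPs at 667 and 579 CPM. The EMC10 line had 300, 358 and 361 CPM in the inputs and 577, 606 and 721 CPM in the IPs. The folds of a pair were the most even of the members, from 1.65 to 2.12 with an SD of 0.13 on the log2 scale over 7 pairs. REEP5 rose by 0.92 ± 0.09 (adjusted p = 1.08e-10). It overlaps SRP19, with 350 counts over all libraries.

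REEP6 (chromosome 19, 1491181 to 1497927), known for its role in the ER of rod photoreceptors, was as low as RTN1, with 12 to 47 counts in each input and 12 to 33 in each IP. It had 4.34 and 9.92 CPM in the EMC6 inputs and 22.4 and 30.7 CPM in the IPs. The EMC7 inputs were at 10.9 and 7.4 CPM and the IPs at 23.7 and 16.7 CPM. In the EMC10 line the inputs had 8.58, 8.57 and 9.64 CPM and the IPs 14.4, 29.6 and 17.2 CPM. The groups lay apart in each line, but the folds of a pair spread from 1.69 to 5.17. The rise was 1.43 ± 0.20 (adjusted p = 2.13e-07), with a standard error about as large as that of RTN1.

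ARL6IP1 (chromosome 16, 18791667 to 18801549) is a small reticulon-like protein with a pair of hairpins that promotes tubules and binds other ER-shaping proteins. It was at 210.5 and 273 CPM in the EMC6 inputs and at 512 and 731 CPM in the IPs. The EMC7 inputs had 559 and 682 CPM and the IPs 1218 and 1034 CPM. The EMC10 line had 546, 554 and 601 CPM in the inputs and 1049, 1119 and 1267 CPM in the IPs. Every IP was above every input of its line, and the rise was 1.08 ± 0.10 (adjusted p = 5.58e-12). The RefSeq table holds 3 pseudogenes of ARL6IP1 and 1 of RTN3, none of them counted in the files, so reads that match both a gene and its copy may have been lost or added.

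ATL2 (chromosome 2, 38293954 to 38378584), the atlastin that predominates outside neurons together with ATL3, had 56.1 CPM in both EMC6 inputs and 140 and 123 CPM in the IPs. It was at 91.4 and 85.2 CPM in the EMC7 inputs and at 252 and 267 CPM in the IPs. In the EMC10 line the inputs had 84.2, 84.2 and 86 CPM and the IPs 249, 249 and 271 CPM. The groups lay well apart in every line, with folds of 2.19 to 3.16. ATL2 rose by 1.46 ± 0.10 (adjusted p = 1.41e-15), at the 89.8 percentile of all genes.

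ATL3 (chromosome 11, 63624087 to 63671974) did not pass the filter on low counts and was not tested. Its inputs had 8 and 8 counts in the EMC6 line, 16 and 6 in the EMC7 line and 4, 12 and 6 in the EMC10 line. The IPs had 2 and 3, 4 and 2, and 1, 8 and 5 counts in the same order of lines. With so few counts a change of ATL3 was not assessed, and no fold is given.

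The members differed among themselves by more than the spread between pairs in part. Of the 36 pairs of tested members, 16 kept the same order of IP over input in all 7 input and IP pairs. ATL2 was above RTN3 by 0.64 ± 0.27 (SD, n = 7 pairs) and above REEP5 by 0.56 ± 0.29, in 7 of 7 pairs each. REEP4 was above RTN4 by 0.75 ± 0.24 and above REEP5 by 0.39 ± 0.24, again in 7 of 7. ARL6IP1 was above RTN4 by 0.51 ± 0.14 and above REEP3 by 0.50 ± 0.15 in every pair. Neighbours in the order were not separated: ATL2 exceeded REEP4 in 5 of 7 pairs (0.17 ± 0.47), REEP6 exceeded REEP4 in 3 of 7, and REEP3 exceeded RTN4 in 3 of 7 (0.01 ± 0.22). These differences compare changes, not levels, because CPM is not divided by the length of the message, and the 7 pairs share 3 lines.

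By line, 8 of 9 members rose in the EMC6 line (background 17.6% of all genes), 7 of 9 in the EMC7 line (20.4%) and 9 of 9 in the EMC10 line (19.9%). These calls are under TMM. With library size alone fewer members rose in each line and some fell in the EMC7 and EMC10 lines, as given at the end. The median change of the members was 1.05 (EMC6), 0.86 (EMC7) and 0.92 (EMC10), where the medians of all genes were -0.12, -0.14 and -0.17. In the EMC6 line REEP6 (1.92 ± 0.40), REEP4 (1.69 ± 0.21) and ARL6IP1 (1.37 ± 0.18) had the larger changes, and RTN1 did not pass (0.71 ± 0.42, adjusted p = 0.22). In the EMC7 line ATL2 led (1.55 ± 0.17), and RTN4 (0.41 ± 0.18, adjusted p = 0.089) and REEP3 (0.37 ± 0.22, adjusted p = 0.215) did not pass. With input and IP of a replicate number as a block, RTN4 (0.41, adjusted p = 1.54e-05) and REEP3 (0.38, adjusted p = 0.00809) passed in that line too, where 22.1% of all genes rose. ATL2 also led in the EMC10 line (3.03-fold, adjusted p = 3.84e-12), where RTN4 was lowest (0.48 ± 0.15, adjusted p = 0.0108). The EMC6 calls rest in part on EMC6 IP replicate 2: without it RTN4 (0.60), REEP3 (0.35) and REEP6 (1.62) no longer passed. Without EMC6 Input replicate 1, RTN4 (0.53) and REEP3 (0.59) did not pass. These fits leave 1 library in a group, and the number of all genes called moved with them. In the EMC7 line the scarce RTN1 and REEP6 no longer passed without IP replicate 1 (0.78 and 0.82) or Input replicate 2 (0.89 and 0.91). For EMC10, RTN4 and REEP3 no longer passed without Input replicate 1 (0.45 and 0.53) or IP replicate 3 (0.43 and 0.44), and REEP6 without IP replicate 2 (0.84). Over the 6 fits that left out 1 EMC10 library, 1679 to 1829 of all genes rose. Fitted on the EMC6 libraries alone, 5 of 9 members rose, and the range of all genes over the settings is given at the end.

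**Figure D2:**
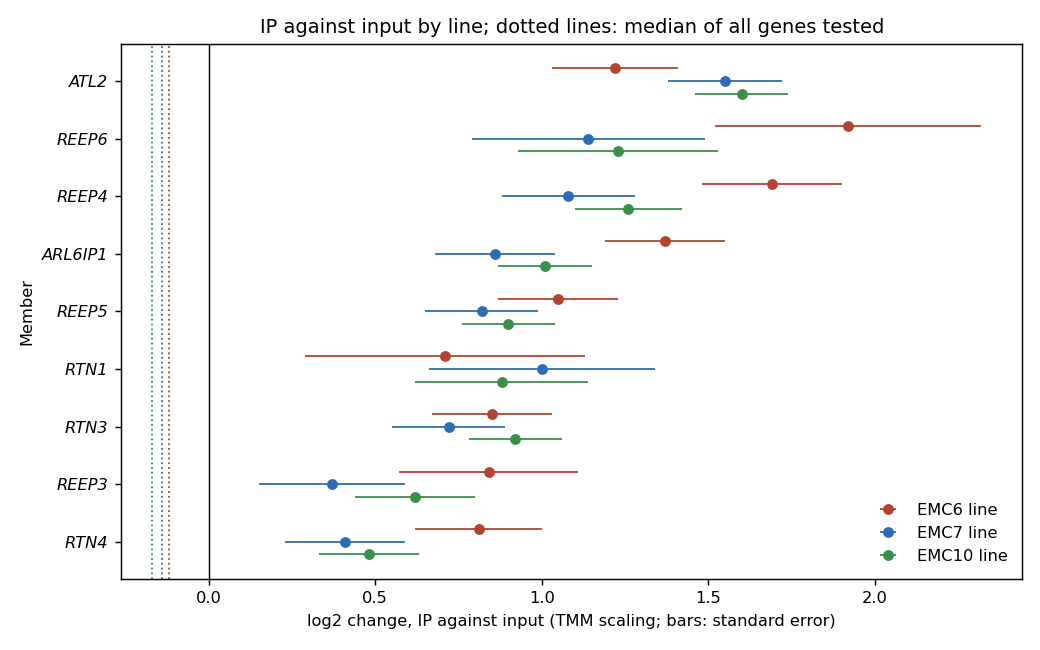
Change of each tested member, IP against input, in each tagged line, on the log2 scale with bars of 1 standard error. Dotted lines mark the median of all genes in each line, between -0.17 and -0.12; every member lies above them in every line, from 0.37 (REEP3, EMC7 line) to 1.92 (REEP6, EMC6 line).

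Between baits, the test of the difference called 0 of 9 members in each of the 3 comparisons (edgeR). Of all genes it called 0.518% for EMC6 against EMC7, 0.074% for EMC6 against EMC10, and 0.159% for EMC7 against EMC10. At an unadjusted p under 0.05, 1 member differed between EMC6 and EMC7, REEP4, and 0 in the other comparisons, where 8.96%, 6.24% and 6.57% of all genes were under that threshold. DESeq2 gave the same counts of members, 0 adjusted and 1, 0 and 0 unadjusted. The difference of EMC6 minus EMC7 was 0.61 ± 0.28 for REEP4 (adjusted p = 0.495) and 0.51 ± 0.25 for ARL6IP1 (adjusted p = 0.566). With the replicate block both were called, REEP4 at 0.58 (adjusted p = 0.00155) and ARL6IP1 at 0.49 (adjusted p = 0.00144), in a fit that called 6.31% of all genes. Leaving out EMC6 Input replicate 2 called RTN4 (0.90), REEP4 (1.01) and ARL6IP1 (0.85), and leaving out EMC6 IP replicate 1 called REEP4 (1.09), in fits that called 2.73% and 1.02% of all genes. The comparison of EMC6 with EMC10 called RTN4 (0.82, adjusted p = 0.0468) when EMC6 Input replicate 2 was left out, where 2.3% of all genes were called.

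ATL2 had the opposite sign to REEP4 without passing the edgeR test. It was at -0.33 ± 0.25 for EMC6 minus EMC7 (adjusted p = 0.822) and -0.38 ± 0.23 for EMC6 minus EMC10 (adjusted p = 0.823). RTN1 was also below 0 in both (-0.29 ± 0.52 and -0.17 ± 0.48), and RTN3 in the comparison with EMC10 (-0.06 ± 0.22). Above 0 were 7 of 9 members against EMC7 and 6 of 9 against EMC10. Between EMC7 and EMC10 the 9 members lay between -0.24 (REEP3) and 0.12 (RTN1). The approximate 95% intervals there reached from -0.96 to 0.79 for the scarce REEP6 and from -0.47 to 0.38 for ATL2. Differences between these baits of up to about that size were not detectable, and the misses do not show that the baits act alike.

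The direction of the smaller changes depended on how libraries were scaled, while the distance to the middle of the genes did not. With library size alone, 3 of 9 members rose, REEP4, REEP6 and ATL2, where 12% of all genes rose, and 2 fell, RTN4 (-0.38) and REEP3 (-0.34), where 77% of all genes fell. RTN1 (-0.08), RTN3 (-0.12) and REEP5 (-0.03) also turned below 0 without passing the test. The bait message fills up to 26.1% of an IP, and with library size alone after removal of the bait messages 5 of 9 rose, where 14.4% of all genes rose. With scaling on 55 ER luminal chaperones and enzymes, 6 of 9 rose, where 16.9% of all genes rose, and all 9 lay above 0. The median of the members lay 1.11 above that of all genes under TMM, DESeq2 size factors, library size and the luminal scaling alike, since a scaling moves all genes together.

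**Figure D3:**
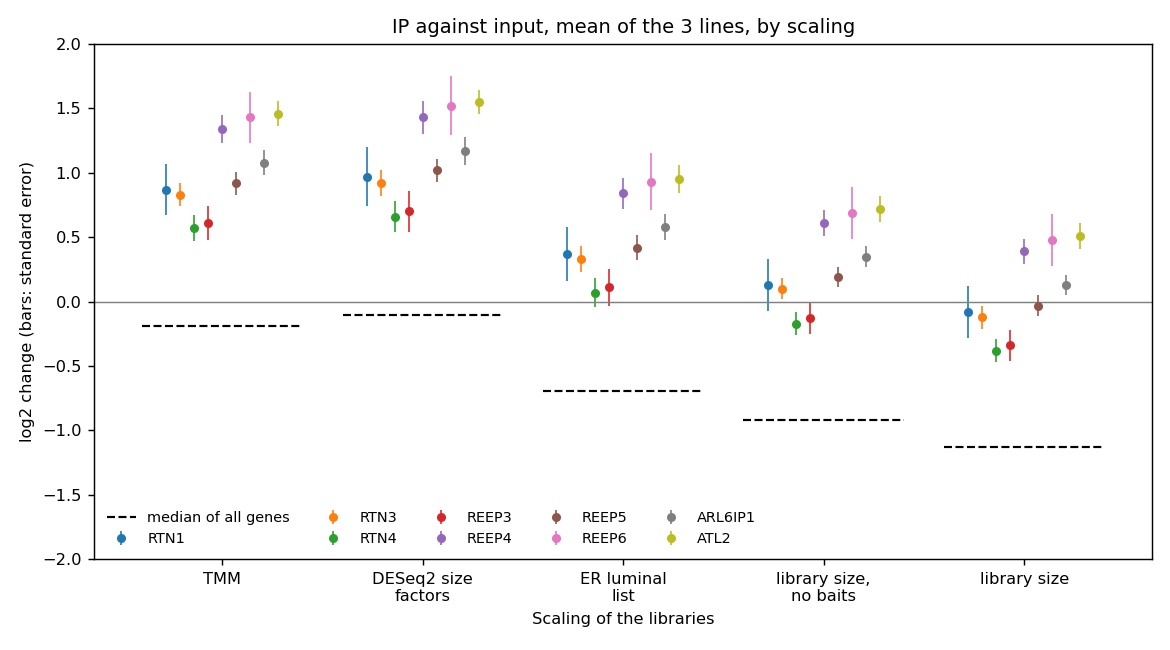
IP against input over the mean of the 3 lines for the 9 tested members under 5 scalings, on the log2 scale with bars of 1 standard error. The dashed line is the median of all genes under each scaling, from -0.10 with DESeq2 size factors to -1.13 with library size; the members move with it, and RTN4 and REEP3 pass below 0 under both library-size scalings.

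Other hairpin proteins of the ER, listed from the same families and from ER-phagy receptors and tubule proteins, also had more footprints in the IP. Of 9 tested, 9 rose, where 23.7% of all genes rose, with a median of 1.44 against the members' 0.92. With library size alone 6 rose and 1 fell, where 12% of all genes rose and 77% fell. Luminal scaling gave 7 that rose, where 16.9% of all genes rose. Fewer also rose without EMC6 IP replicate 2, a fit that leaves 1 library in that group. Taken by line, 8 of the 9 rose in each, where 17.6% (EMC6), 20.4% (EMC7) and 19.9% (EMC10) of all genes rose. The remaining reticulon RTN2 rose by 1.47 ± 0.15, the neuronal atlastin ATL1 by 1.41 ± 0.18, REEP1 by 0.75 ± 0.19 and REEP2 by 0.84 ± 0.12. REEP1 was higher in the IP in 6 of 7 pairs and did not pass in the EMC6 line (0.74 ± 0.41, adjusted p = 0.187, edgeR). RTN2 was above each of RTN1, RTN3 and RTN4 in 7 of 7 pairs, by 0.59 ± 0.46, 0.63 ± 0.25 and 0.91 ± 0.09 (SD, n = 7). ATL1 and ATL2 were not separated, with ATL2 the higher in 4 of 7 pairs (0.06 ± 0.21).

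The reticulon-homology receptors of ER-phagy rose by 1.44 ± 0.12 (RETREG1), 1.55 ± 0.15 (RETREG2) and 1.46 ± 0.11 (RETREG3). ZFYVE27 (protrudin), which has hairpin segments and directs ER and endosome transport into neurites, rose by 3.17 ± 0.11, and it was above each of the 9 members in 7 of 7 pairs. Its level was 55.8 ± 16.5 CPM (SD, n = 2) in the EMC6 inputs and 807 ± 112 CPM in the EMC6 IPs, and 83.7 ± 8.78 CPM against 706 ± 37.1 CPM (n = 3) in the EMC10 line. The EMC7 line had 94.2 ± 3.61 CPM in the inputs and 561 ± 69.7 CPM in the IPs (n = 2), the smallest rise of the 3 lines. SPAST, the microtubule-severing ATPase with a hairpin in its longer form, had the lowest rise of the list (0.43 ± 0.15, adjusted p = 0.0175), and in 1 of 7 pairs it was lower in the IP. It passed in the EMC6 line (0.99 ± 0.30) but not in the EMC7 (0.05 ± 0.26) or EMC10 line (0.24 ± 0.21).

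Proteins of ER sheets and tubule junctions did not move together. TMEM33, a multi-pass protein that binds reticulons, rose by 1.90 ± 0.09, LNPK (lunapark), which sits at junctions and has a pair of membrane segments, by 0.56 ± 0.11, and the sheet spacer CKAP4 by 0.41 ± 0.09. KTN1 (-0.20 ± 0.10, adjusted p = 0.0909) and RRBP1 (-0.14 ± 0.10, adjusted p = 0.226), which are single-anchor proteins of rough ER, did not pass, while with the replicate block both fell. With library size alone 1 of the 5 rose and 4 fell, near the 77% of all genes that fell. KTN1 was lower in the IP in all 7 pairs, where the median of all genes was also below 0.

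Set beside wider classes of proteins, the members' median of 0.92 lay near that of short multi-pass proteins. Of 34 tested tetraspanins, claudins and similar messages 34 rose, with a median of 1.12 (CD81 1.00, CD63 0.90, TSPAN3 1.06). Of 12 tested proteins with a hairpin of lipid droplets or caveolae 9 rose, with a median of 1.06 (ACSL3 1.76, METTL7A 1.53, FAF2 1.13). The 55 luminal proteins had a median of 0.34, and 31 rose, GANAB (1.25) and CALR (1.09) among them, while HSP90B1 did not pass (-0.15, adjusted p = 0.14). Tail-anchored proteins, which insert after synthesis, had a median of -0.45, and 10 of 30 (33.3%) fell beside 26.9% of all genes, VAPA (-0.89), CYB5B (-0.62) and PTPN1 (-0.60) among them. Of 38 cytosolic proteins 27 fell, with a median of -0.34 (EEF1A1 -0.74, HSP90AB1 -0.41), and EEF2 did not pass (-0.13, adjusted p = 0.242). Of all genes 23.7% rose and 26.9% fell. The lists were compared by counts and medians alone, without a test between them, and were chosen with earlier results of these data known. With library size alone the medians were 0.17 for the short multi-pass list and -0.60 for the luminal list, on either side of the members' -0.03. Under that scaling, where 12% of all genes rose and 77% fell, 12 of 34 short multi-pass genes rose and 2 fell. Of 55 luminal genes 5 rose and 40 fell, near the shares of all genes, and of 12 lipid droplet genes 5 rose and 2 fell. Falls were called for 29 of 30 tail-anchored and 38 of 38 cytosolic genes.

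**Figure D4:**
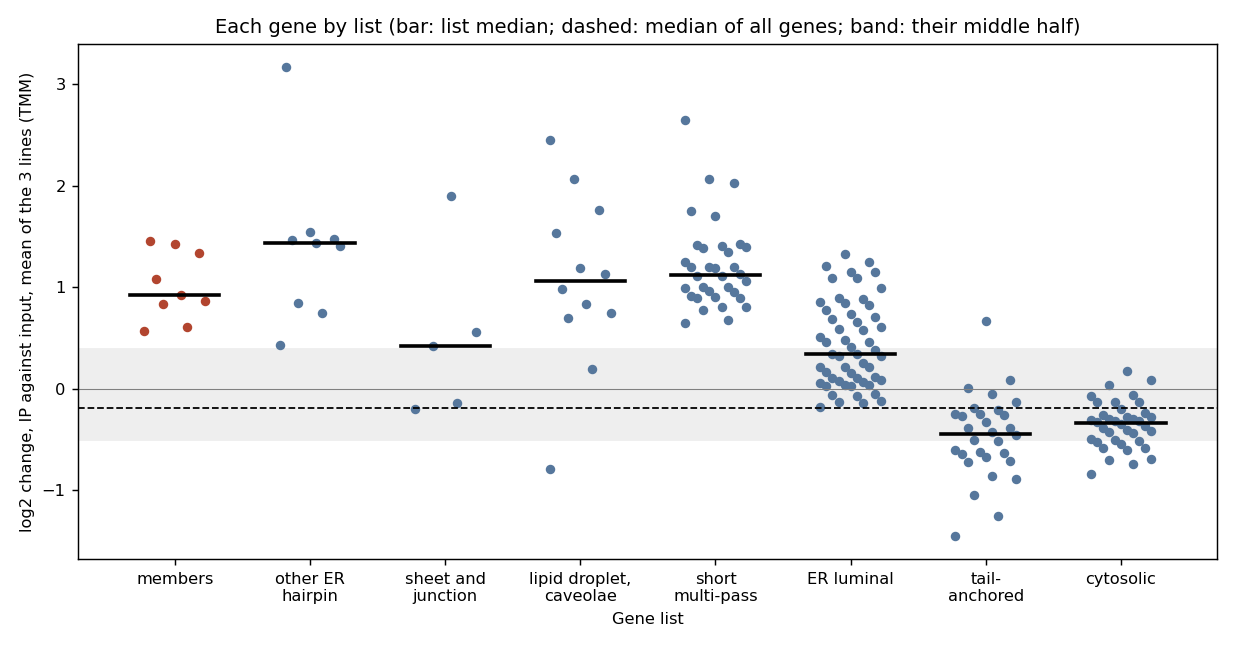
Change of each tested gene, IP against input over the mean of the 3 lines with TMM scaling, by list on the log2 scale. Black bars are list medians (members 0.92, other ER hairpin proteins 1.44, short multi-pass 1.12, ER luminal 0.34, tail-anchored -0.45, cytosolic -0.34), the dashed line is the median of all genes (-0.19), and the grey band holds the central quartiles of all genes.

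The members started from different input levels in the EMC6 line. In its inputs 7 of 9 members were lower than the mean of the EMC7 and EMC10 inputs, where 21.8% of all genes were lower, with a median of -1.06 against 0.07 for all genes. REEP5 was lower by the most (-1.53 ± 0.15, adjusted p = 1.28e-09), followed by ARL6IP1 (-1.29 ± 0.16), REEP3 (-1.28 ± 0.20), RTN4 (-1.08 ± 0.16) and REEP4 (-1.06 ± 0.18). RTN3 (-0.68 ± 0.15) and ATL2 (-0.63 ± 0.15) were lower by less. With library size alone 6 of 9 were lower, where 15.4% of all genes were: ATL2 no longer passed (-0.32, adjusted p = 0.0685), and RTN1 lay above 0 (0.17). RTN1 (-0.14 ± 0.27, adjusted p = 0.728) and REEP6 (-0.34 ± 0.31, adjusted p = 0.408) did not pass, although without EMC6 Input replicate 2 REEP6 was lower by the test (-1.12, adjusted p = 0.043).

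Messages of other ER proteins were lower in the same inputs: 51 of 55 luminal genes (median -0.99), 5 of 5 sheet and junction genes and 29 of 34 short multi-pass genes. The luminal genes took 4.34% and 4.52% of gene counts in the EMC6 inputs and 7.36% to 8.21% in the other inputs, and their part in the members' difference was not tested. Counts assigned to no gene came to 9.28% to 12.5% in EMC6 libraries against 2.76% to 5.15% elsewhere. With scaling on the luminal list, 4 of 9 members were higher in the EMC6 inputs (RTN1, RTN3, REEP6 and ATL2) and REEP5 was lower (-0.40), with a median of 0.07, where 77.3% of all genes were higher. The knockout, the line and its library preparation cannot be told apart, and in such samples less footprint per cell and fewer ER membranes per input cannot be told apart either. Between the EMC7 and EMC10 inputs 0 of 9 members differed by edgeR or DESeq2, where edgeR called 0.0211% of all genes. At an unadjusted p under 0.05 it was also 0 of 9 by both tools, beside 1.7% of all genes by edgeR.

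**Figure D5:**
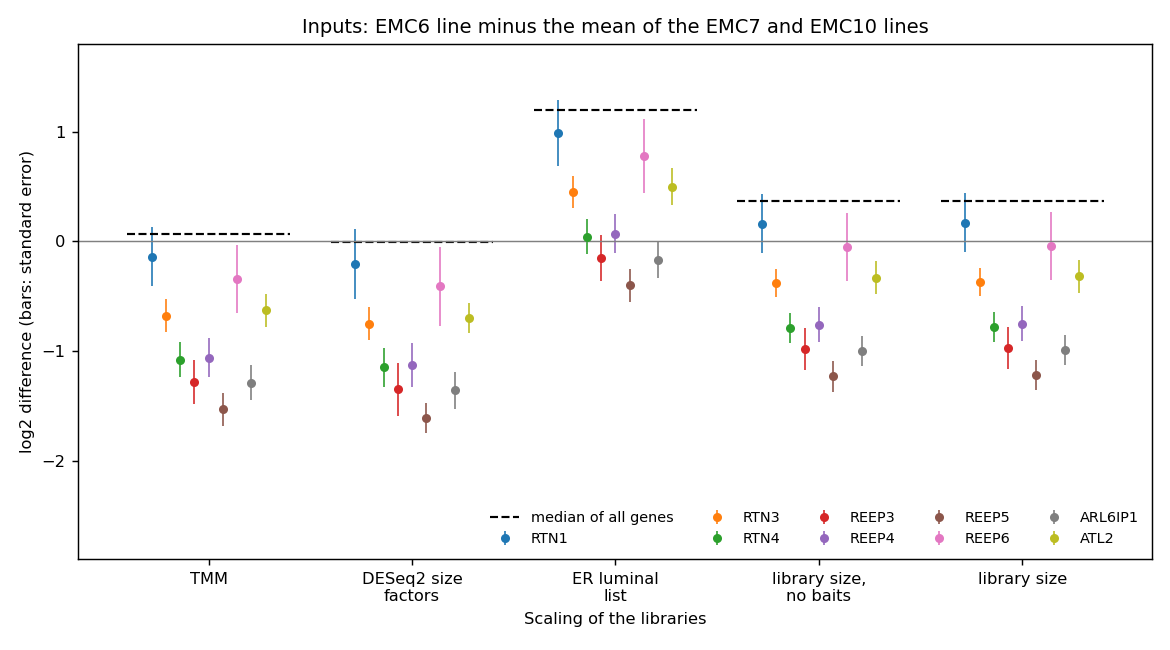
Input level of the 9 tested members in the EMC6 line minus the mean of the EMC7 and EMC10 lines, under 5 scalings, on the log2 scale with bars of 1 standard error. The dashed line is the median of all genes, from -0.01 (DESeq2) to 1.20 (luminal list); every member lies below it under every scaling, and with scaling on the luminal list 6 members lie above 0, of which RTN1, RTN3, REEP6 and ATL2 passed the test.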

How the data were processed

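For 14 samples the authors deposited raw counts of ribosome footprints by gene symbol. The submitters' processing notes list TopHat2 2.1.0, Bowtie2 2.2.6 and Cutadapt 4.1, with hg38 as the build. For annotation, strand and duplicates, the setting is not given in the sources used here. The members and lists were chosen with earlier results of these data known.

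A single model of 6 groups (3 lines by fraction) was fitted to the 14 libraries with R 4.3.3, limma 3.58.1 and edgeR 4.0.16, using TMM, filterByExpr (9458 genes kept), a robust quasi-likelihood test and Benjamini-Hochberg adjustment at 0.05. The fit was also run on simulated counts with far fewer changed genes and no bait message filling the IPs. That run does not check the scaling. CPM values are counts relative to the TMM-scaled library total. Alternatives were DESeq2 1.42.0, other scalings and filters, a replicate block, each line alone and leaving out each library. Named genes were all 10 members, every tested gene of the lists of other ER hairpin and of sheet and junction proteins, the 3 most abundant genes in inputs of each other list, and the baits. Of the 19440 symbols 18968 matched the RefSeq table of GRCh38.p14. A comparison by hydrophobic segments needed protein sequences and was not run.

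A batch tag in the labels numbers the replicates, and an input shares its number with an IP, so they were treated as pairs for the block. Deviations of input and IP with the same number from their group means correlated at r = 0.272 (EMC6), 0.0744 (EMC7) and 0.0411 to 0.0951 (EMC10) across genes. Replicates of every group differed by more than counting noise (chi-square over its degrees of freedom 2.09 to 8.62).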

Additional observations from a re-analysis of the deposited data

Results flagged for a closer look

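Besides the bait messages, 2 of the named genes differed between baits by the test of the difference itself (edgeR, adjusted over 9458 genes). ZFYVE27 rose by 1.28 ± 0.27 more on the log2 scale in the EMC6 line than in the EMC7 line (adjusted p = 0.0157), with rises of 3.85 ± 0.20 and 2.57 ± 0.19. GANAB, the catalytic subunit of glucosidase II, differed by -0.98 ± 0.21 in the same comparison (adjusted p = 0.0224), with rises of 0.86 ± 0.15 in the EMC6 line and 1.84 ± 0.15 in the EMC7 line. Neither was called between the EMC6 and EMC10 lines, at 0.78 ± 0.24 (adjusted p = 0.483) and -0.20 ± 0.19 (adjusted p = 0.906).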

How the results depend on the processing

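Each test was repeated under the alternatives. Library size alone gave, over the mean of the lines, 3 members that rose and 2 that fell, where 12% of all genes rose and 77% fell. Below 0 were RTN1 at -0.08, RTN3 -0.12, RTN4 -0.38, REEP3 -0.34 and REEP5 -0.03. In the EMC6 line it gave 4 that rose. In the EMC7 line 1 rose and 2 fell (RTN1 -0.02, RTN3 -0.30, RTN4 -0.61, REEP3 -0.65, REEP5 -0.21, ARL6IP1 -0.16), and in the EMC10 line 1 rose and 2 fell (RTN1 -0.23, RTN3 -0.20, RTN4 -0.64, REEP3 -0.50, REEP5 -0.22, ARL6IP1 -0.11). It called 1 member between EMC6 and EMC7 and 3 between EMC6 and EMC10, all higher, where 2.06% and 5.21% of all genes were called higher and the all-gene medians were 0.32 and 0.46. Library size without the bait messages, added after seeing the data, gave 5 that rose over the mean (RTN4 -0.17, REEP3 -0.13), where 14.4% of all genes rose. It gave 4 in the EMC6 line, 1 that rose and 1 that fell in the EMC7 line (RTN3 -0.08, RTN4 -0.39) and 3 in the EMC10 line (RTN4 -0.22, REEP3 -0.09). Luminal scaling gave 1 member that rose in the EMC7 line (RTN3 -0.04). In the EMC6 inputs it gave 4 higher and 1 lower, where 77.3% of all genes were higher (RTN1 0.99, RTN3 0.45, RTN4 0.04, REEP4 0.07, REEP6 0.78, ATL2 0.50). For single lines no share of all genes under the same scaling stands beside these counts, so they are not a result about the members. These scalings shift all genes together: averaged over lines, the all-gene median was -0.19 (TMM), -0.10 (DESeq2), -0.69 (luminal scaling) and -1.13 (library size). Over all settings other than leaving out 1 library, 1135 to 2382 of all genes rose and 1616 to 7282 fell over the mean (2243 and 2547 with TMM), and in the EMC6 inputs 713 to 7315 were higher and 163 to 2142 lower (1445 and 2066). By line, 990 to 1862 (EMC6), 1001 to 2115 (EMC7) and 760 to 2097 (EMC10) rose, and 128 to 4320, 545 to 6038 and 739 to 7171 fell.

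Fitted alone, the EMC6 line gave 5 members that rose, and the EMC7 line gave 9, with RTN4 and REEP3 gained. The replicate block called 2 members between EMC6 and EMC7 and gave 9 members that rose in the EMC7 line, and it changed no other member's call. Inputs alone could not be fitted with it. It moved the genes called between baits from 49, 7 and 15 to 597, 211 and 414. Leaving out 1 library gave 9 members that rose over the mean in all 14 fits, 5 to 8 for EMC6, 5 to 7 for EMC7 and 7 to 9 for EMC10. It gave 0 to 3 members called between EMC6 and EMC7, 0 to 1 between EMC6 and EMC10, and 7 to 8 lower in the EMC6 inputs. Where a fit left 1 library in a group, that library is assumed to vary like the other groups. The number of all genes called also moved between the fits without 1 library, so these counts of members have no fixed background. Among the lines, the number of all genes that rose moved most in the EMC6 fits. A member's call gained or lost when 1 library was left out is therefore not a result about that member. By size, the lowest change of a tested member over the fits without 1 library was 0.44 over the mean (REEP3). It was 0.35 in the EMC6 line (REEP3) and 0.22 in the EMC7 line (RTN4 and REEP3). The mean without the EMC6 line, added after seeing the data, kept 9 members that rose. DESeq2, both other filters and the fit without bait messages kept the call and direction of every member for which they gave an adjusted p; DESeq2 gave none for 6 of its 81 values. Depth limits RTN1, REEP6 and ATL3. The alternatives by hydrophobic segments were not run.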
